A study of Homo sapiens with 8 samples.

Results

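The 144 transcript isoforms described here were lower in both polysomal and total RNA of HT-144 cells after siRNA against DDX3X. They were chosen by a rule on the deposited values from 65514 isoforms with valid values. The rule took the 6427 isoforms that were above 0 in all 8 libraries with a mean of at least 5 FPKM (fragments scaled to transcript length and to the number of mapped fragments). It kept those whose higher DDX3X siRNA value was at most 0.77 times the lower control value, in polysomal RNA and again in total RNA. All 144 also passed the filter of the model below. The values of all 8 libraries thus chose the members, so their lower level with DDX3X siRNA is a description and was not tested.

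HT-144 is an established human melanoma cell line, and it is the only line in the study. The 4 groups were total RNA and polysomal RNA from cells given control siRNA, and total RNA and polysomal RNA from cells given DDX3X siRNA, with 2 libraries each. The labels used here state no siRNA dose, sequence or time, and they do not say whether the 2 libraries of a group came from separate cultures. P-values therefore measure the spread between libraries, which may be technical.

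An siRNA is a short double-stranded RNA that directs the breakdown of messenger RNAs matching it. DDX3X is an X-linked DEAD-box RNA helicase, an enzyme that unwinds RNA with energy from ATP, and it is known for its part in translation initiation. Ribosomes that translate one messenger RNA together form a polysome, which sediments fast in a sucrose gradient. The level of an isoform in polysomal RNA therefore depends on how much of the RNA there is and on how much of it carries several ribosomes. An isoform that is lower in both fractions to a similar extent has a similar ratio of polysomal to total RNA with both siRNAs.

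The table names isoforms by identifiers only. Of its 65535 identifiers, 1 matched the reference gene tables, and of the 144 members 0 did. The members are therefore given by identifier, with no gene name, genome position, function or sequence. DDX3X itself was not identified in the table, and whether it has a row there is unknown. The knockdown and the melanoma markers were not checked. The 8 libraries listed 12786 to 13481 isoforms at 1 FPKM or more. Scaling factors (median of ratios) ran from 0.949 to 1.18, while summed FPKM ran from 654252 in control polysomal replicate 2 to 5486857 in DDX3X polysomal replicate 1. That DDX3X library stood apart, with the fewest isoforms at 1 FPKM (12786) and the most tested isoforms listed at 0 (158, against 67 to 103 in the others). Without it 169 isoforms met the rule, all 144 members among them. Depth is unknown, since read numbers cannot be read from FPKM, and the values come with no estimate of their counting error.

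At the level minimum of the rule, 338 isoforms met its limit in polysomal RNA (5.26%) and 311 in total RNA (4.84%). The 144 members (2.24%) made up 42.6% of the polysomal list and 46.3% of the total RNA list. The mirrored rule for higher values with DDX3X siRNA was met by 145 isoforms. Just inside the limit lay uc001rnc.3, with a larger ratio of 0.768, and just outside it uc001txj.2, with 0.7701. In uc001rnc.3 the polysomal values were 9.55 and 8.62 FPKM with control and 2.59 and 5.68 FPKM with DDX3X siRNA, and the total RNA values 7.63 and 7.33 against 5.63 and 5.56 FPKM. In uc001txj.2 they were 5.34 and 4.71 against 2.92 and 3.63 FPKM in polysomal RNA, and 9.64 and 9.68 against 7.26 and 7.29 FPKM in total RNA. The pair differed little at the limit, so membership near it is a matter of small differences.

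Between the group means, members were lower by a median of 40.5% in polysomal RNA (range 26.0% to 80.7%) and by a median of 40.0% in total RNA. On the log2(FPKM + 1) scale the median difference, DDX3X minus control siRNA, was -0.72 in polysomal and -0.69 in total RNA. Over all 15531 isoforms in the model these medians were -0.02 and 0.04. In bulk RNA, fewer cells with an isoform and less of it per cell cannot be told apart. The polysomal difference was the larger one in 77 members and the total RNA difference in 67. The median gap between them was -0.02 on the log2 scale, with quartiles of -0.16 and 0.08. Over all 6427 isoforms at the level minimum it was -0.04, with quartiles of -0.22 and 0.11. There the gap was below 0 in 3634 isoforms and above 0 in 2793. The gap comes from contrasts that the rule used, so it was not tested. The limma model called 19 isoforms (0.122%) lower in polysomal RNA with DDX3X siRNA, of which 6 were members, and 33 (0.212%) lower in total RNA, of which 17 were members, at an adjusted p under 0.05. The rule used these contrasts, so nothing is read from those counts.

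**Figure D1:**
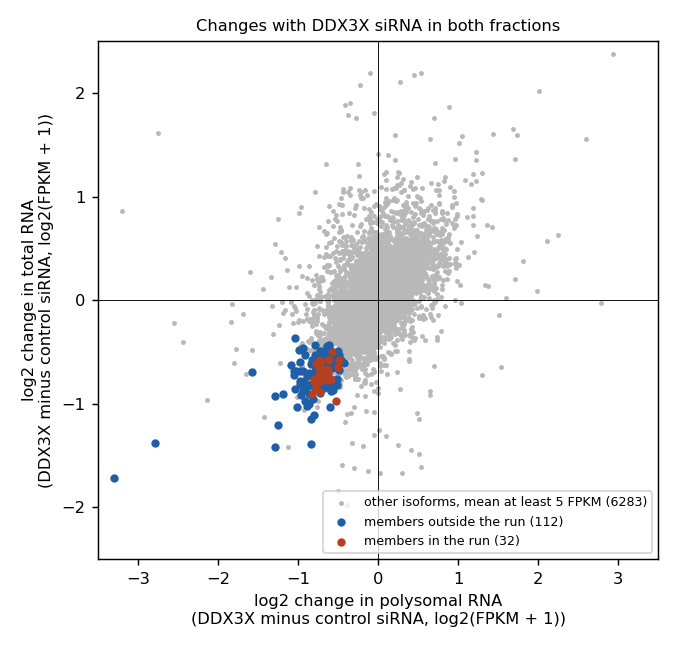
Each point is an isoform, placed by its log2 change with DDX3X siRNA in polysomal RNA (x axis) and in total RNA (y axis), on the log2(FPKM + 1) scale. The 112 blue and 32 red members fill the lower left corner that the rule selects, with medians of -0.72 and -0.69, and the other isoforms of at least 5 FPKM are grey. Outside the plotted range lie 6 isoforms, none of them members (0 members).

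The members were not spread evenly over the table. A run of 32 members, each at most 100 rows from the next, lay between rows 28732 and 29018. It held 22.2% of the members in 287 rows, which are 0.438% of the table. The nearest members outside it were 1227 rows before and 354 rows after. Of the other members, 65 had no other member within 100 rows, and the rest formed 12 pairs, 6 groups of 3 and 1 group of 5. The run was noticed in these values and has no test. The files do not say what orders the rows. In 9 rows the first value column holds a genomic location in place of a value. The 6 of them between rows 60572 and 60709 all name chromosome 14, and the 3 between rows 64113 and 64781 all name chromosome 15. Whether neighbouring rows are neighbours in the genome, or isoforms that share reads, was not tested.

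**Figure D2:**
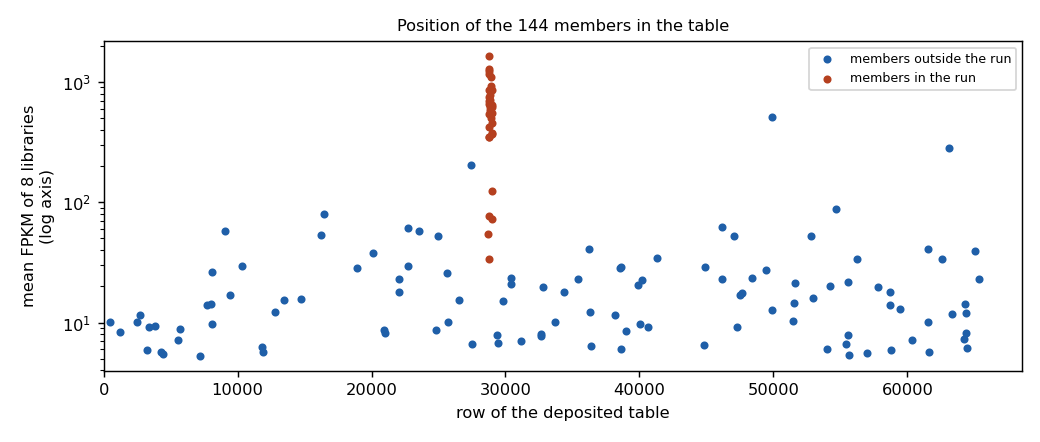
Each point is a member, placed by its row in the deposited table (x axis) and its mean FPKM over 8 libraries (y axis, log axis). The 32 members of the run (red) stand in a narrow column near row 28732, and most of them lie above the other 112 members (blue).

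The run held most of the abundant members. Its members had a median of 601 FPKM (range 33.4 to 1632), against 14.4 FPKM (range 5.29 to 514) for the 112 others. At 500 FPKM or more, 20 of 21 members were in the run. At 200 FPKM or more, 27 of 30 were, while all 71 members under 20 FPKM lay outside it. Members were 17.9% of all 117 isoforms from 500 FPKM upward, 6.72% of the 134 from 200 to 500 FPKM, and 1.75% of the 4049 under 20 FPKM. FPKM is scaled to transcript length, but the lengths are not given here. The highest mean among isoforms at the level minimum was 1.43e+06 FPKM. How far FPKM levels of different isoforms can be set side by side was not tested. Cufflinks also divides shared reads by a model, and the split between similar isoforms is uncertain.

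The most abundant member was uc003nfs.1, in the run. Its polysomal values were 2764 and 3009 FPKM with control siRNA and 1810.2 and 1466 FPKM with DDX3X siRNA, and its total RNA values were 1224 and 1384 against 766 and 634 FPKM. It was thus lower by 43.2% in polysomal and by 46.3% in total RNA. The siRNA groups stood apart, which the rule fixes for every member. The next, uc003ngi.3, also in the run, held 2061 and 2364 against 1518 and 1346 FPKM in polysomal RNA. In total RNA it held 901 and 977 against 625 and 555 FPKM. Its polysomal level was lower by 35.3% and its total RNA level by 37.2%, again with about equal shares in each fraction.

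Members of the run differed from control by similar shares. With DDX3X siRNA their polysomal means were 56.8% to 71.0% of control, with a median of 61.5%. Their total RNA means were 50.1% to 70.7%, with a median of 60.8%. None of the 32 was lower by 50% in either fraction (0 in polysomal and 0 in total RNA), whereas outside the run 21 of 112 were in polysomal RNA, 14 in total RNA and 7 in both. The run's median was 601 FPKM against 14.4 FPKM outside it, and those 7 had means of at most 52.4 FPKM. Expression level and membership of the run were not separated in these counts. Summed over the run, the polysomal FPKM of the control libraries were 30721 and 34298, and those of the DDX3X libraries 20857 and 19375. In total RNA these sums were 15739 and 17888 for control libraries against 11076 and 9451 for DDX3X libraries. In both fractions the control libraries were the high ones, which the rule required of each member. Median-of-ratios scaling left 16 of the 32 inside the limit and quantile normalization 13, with all 144 members still lower in both fractions by their means.

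Isoforms of the same rows that are not members were also mostly lower. Between rows 28732 and 29018, 127 of the 287 isoforms were never above 0 and 58 reached the level minimum, 32 of them members (55.2%). Of the 26 others, 13 met the limit in 1 fraction. At a mean of 50 FPKM or more there were 46 isoforms, 31 members and 15 others. The rule fixes that the members do not overlap between the siRNAs. In all 15 others, too, both DDX3X values lay below both control values in each fraction. Over all 1033 isoforms at that level, members included, this held for 23.7%, and at the level minimum for 15.3%. The 15 others were at 61.0% to 74.2% of control in polysomal and at 54.6% to 79.3% in total RNA. The 11 others under 50 FPKM ranged more widely, from 49.99% to 122% and from 26.8% to 113%. The span and the level of 50 FPKM were set after the values had been seen, so these counts are a description.

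**Figure D3:**
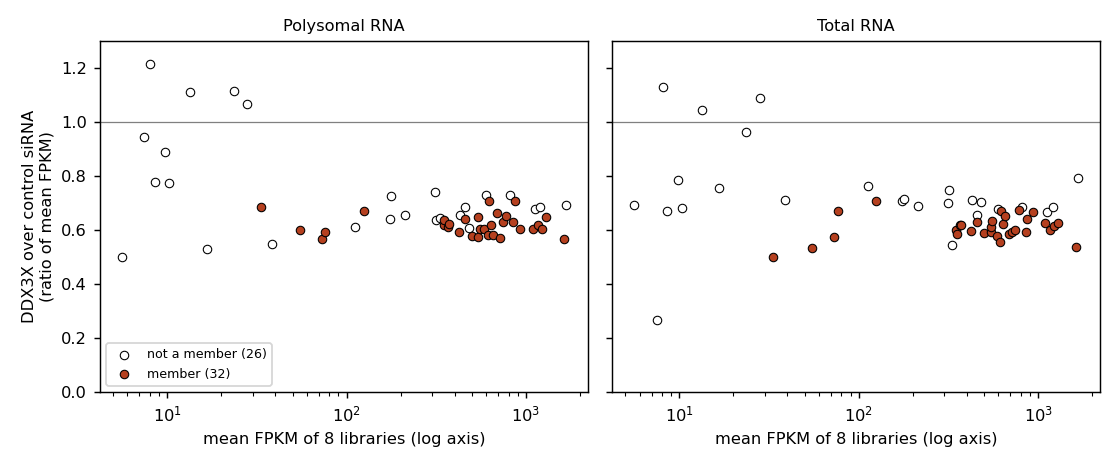
Each point is one of the 58 isoforms at the level minimum between rows 28732 and 29018, placed by its mean FPKM (x axis, log axis) and by its mean with DDX3X siRNA divided by that with control siRNA (y axis), in polysomal RNA (left) and total RNA (right). Filled points are the 32 members and open points the 26 others. The 15 others at 50 FPKM or more lie below 1 in both panels, and the rule puts every member there.

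The rule takes no account of replicate numbers, so it does not fix which library of a group is the higher one. Members of the run differed between these libraries together. In control polysomal RNA 31 of 32 were higher in replicate 2, and in control total RNA 29 of 32 were. In DDX3X total RNA 32 of 32 were lower in replicate 2, and in DDX3X polysomal RNA 23 of 32 were. Members outside the run had the opposite order in the polysomal groups, with 80 of 112 lower in replicate 2 of control and 92 of 112 higher in replicate 2 of DDX3X polysomal RNA. In the total RNA groups they had the same order as the run, with 76 of 112 higher in replicate 2 of control and 75 of 112 lower in replicate 2 of DDX3X total RNA. Over all 6427 isoforms at the level minimum, 33.6% were higher in replicate 2 of control polysomal RNA, 76.3% in DDX3X polysomal, 63.6% in control total and 67.4% in DDX3X total RNA. The order in the run was thus the opposite of the majority in 3 of the 4 groups. The median log2 difference, replicate 2 minus replicate 1, in the run was 0.15 in control polysomal, -0.07 in DDX3X polysomal, 0.20 in control total and -0.24 in DDX3X total RNA. What moved the run between libraries of a group was not tested.

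**Figure D4:**
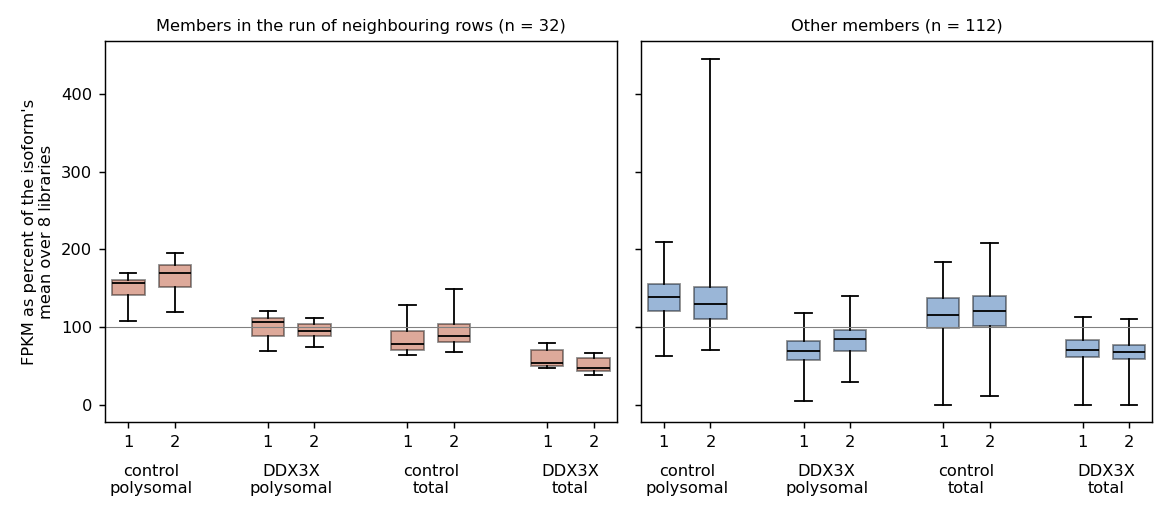
Boxes give the FPKM of members in each library as a percent of each isoform's own mean over 8 libraries (y axis), for the 32 members of the run (left) and the 112 others (right). Boxes span the quartiles with the median as a line, whiskers reach the lowest and highest member, and 1 and 2 are the replicates. In DDX3X total RNA the run's medians are 53.9% and 47.2%, and in control polysomal RNA 157% and 170.2%.

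Outside the run, 3 members reached a mean of 200 FPKM. Isoform uc001mok.3 held 870.1 and 881 FPKM in control and 375 and 558 FPKM in DDX3X polysomal RNA, with 411 and 418 against 307 and 294 FPKM in total RNA. Its polysomal level was lower by 46.8% and its total RNA level by 27.5%. Isoform uc001yku.4 held 457 and 379 against 183 and 210.0 FPKM in polysomal RNA, and 327 and 301 against 195 and 210.5 FPKM in total RNA, which is lower by 53.0% and 35.4%. Isoform uc003lyj.4 held 353 and 303 against 211 and 205 FPKM, and 172 and 176 against 118 and 107 FPKM, lower by 36.6% and 35.4%. In the first 2 of these the polysomal difference was the larger one, and in the third both were alike.

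The largest mean differences belonged to uc010qlo.2 and uc009ywg.1, and both rest on libraries that disagree. Isoform uc010qlo.2 held 109.8 and 154 FPKM in control polysomal RNA and 2.63 and 48.3 FPKM in DDX3X polysomal RNA. Its total RNA values were 28.1 and 52.8 FPKM with control and 13.7 and 8.87 FPKM with DDX3X siRNA. The siRNA groups did not overlap, as the rule requires. On a fold scale the 2 DDX3X polysomal libraries lay further apart than the lower control and the higher DDX3X polysomal value did. Isoform uc009ywg.1 held 101 and 234 against 5.77 and 73.4 FPKM in polysomal RNA. In total RNA 3 of its 4 values were under 0.01 FPKM and the other, in control replicate 2, was 5.73 FPKM, so it met the rule there on values that are practically 0. It was the only member with such values, and no total RNA fold is given for it.

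Of the 7 members outside the run that were lower by at least 50% in both fractions, these were 2. Of the other 5, uc001ijv.3 was the most abundant. It held 56.7 and 45.5 against 19.1 and 21.3 FPKM in polysomal RNA, and 30.7 and 33.1 against 14.5 and 8.82 FPKM in total RNA, which is lower by 60.5% and 63.5%. Isoform uc003tff.4 held 23.7 and 19.4 against 9.27 and 11.1 FPKM, and 27.2 and 27.7 against 12.7 and 13.2 FPKM, lower by 52.9% and 52.8%. Here the libraries of each group lay close together. The 3 remaining, uc001ebl.3, uc001rvs.2 and uc001znt.4, were lower by 60.2%, 50.5% and 55.6% in polysomal RNA and by 53.2%, 53.3% and 61.7% in total RNA. In uc001ebl.3 and uc001znt.4 the DDX3X polysomal libraries again lay far apart, at 1.84 and 6.16 FPKM and at 2.36 and 9.01 FPKM. In these, as in uc010qlo.2 and uc009ywg.1, replicate 1, the library that stood apart, held the lower value. Replicate 2 was the higher of these 2 libraries for 76.3% of all isoforms at the level minimum, so this direction was the usual one.

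The differences in the 2 fractions were most unequal in uc010qlo.2, by -1.58 on the log2 scale toward polysomal RNA, and in uc003oiu.3, by 0.55 toward total RNA. Isoform uc003oiu.3 held 35.0 and 27.6 against 18.7 and 15.4 FPKM in polysomal RNA. In total RNA it held 37.2 and 28.4 against 12.3 and 11.4 FPKM. It was lower by 45.5% in polysomal and by 63.9% in total RNA. These gaps come from the contrasts that the rule used and were not tested.

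Polysomal against total RNA, averaged over both siRNAs, is a contrast whose estimate is balanced against the differences the rule used. It was tested with limma over all 15531 isoforms. The rule also favours members with a small spread between libraries of a group, and limma takes its standard error from that spread. Calls in either direction were therefore easier for members to reach, so shares of members and of all isoforms are not like for like. Of the 144 members, 65 were higher and 23 lower in polysomal RNA at an adjusted p under 0.05. Over all isoforms tested 21.5% were higher and 10.7% lower, and at the level minimum of the rule 38.3% and 12.9%. The members' shares, 45.1% and 16.0%, combine 84.4% and 0% in the run with 33.9% and 20.5% outside it. Without DDX3X polysomal replicate 1, 72 members were higher and 19 lower, of which 26 and 0 were in the run. Quantile normalization gave 51 higher and 30 lower members, and median-of-ratios scaling 60 and 28. Over all isoforms higher calls made up 66.8% of calls from the FPKM as deposited, 51.2% with quantile normalization and 50.3% with median-of-ratios scaling.

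The run and the other members differed here in their counts. In the run 27 of 32 members were higher and 0 lower in polysomal RNA (limma adjusted p from 9.57e-05 to 0.0435 for the 27). Their polysomal means were 1.28 to 2.60 times the total RNA means with control siRNA and 1.17 to 2.46 times with DDX3X siRNA. The median ratio over all 32 was 1.97 in control and 1.99 in DDX3X siRNA cells. Outside the run 38 of 112 were higher and 23 lower, with median ratios of 1.14 and 1.10. Among all isoforms of 200 FPKM or more, 67.3% were higher and 15.1% lower, against 24 of 27 and 0 of 27 in the run at that level. Higher polysomal values were not particular to members. Between rows 28732 and 29018, 42 of the 46 isoforms of 50 FPKM or more were called higher, and those not called were all members. The share called over all isoforms of 50 FPKM or more was not counted. The non-members uc003njp.3, uc003njr.3 and uc003ngy.3 differed by 1.91, 1.89 and 1.62 on the log2 scale, more than any member of the run (at most 1.31). Quantile normalization gave 21 higher and 2 lower members in the run and 30 higher and 28 lower outside it. Over all 15531 isoforms it gave 2721 higher and 2591 lower. Whether the difference between run and other members exceeds that of neighbouring isoforms in general was not tested.

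Counted by values alone, both polysomal libraries lay above both total RNA libraries with each siRNA for 75 of the 144 members, 28 of them in the run, against 41.9% of isoforms at the level minimum. Both lay below for 27 members, 0 of them in the run, against 15.5%. In the run 28 of 32 members lay above. Outside it 47 of 112 did (42.0%), near the background, and 27 of 112 lay below (24.1%). The rule favours members with a small spread between libraries of a group, and so also groups that do not overlap.

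**Figure D5:**
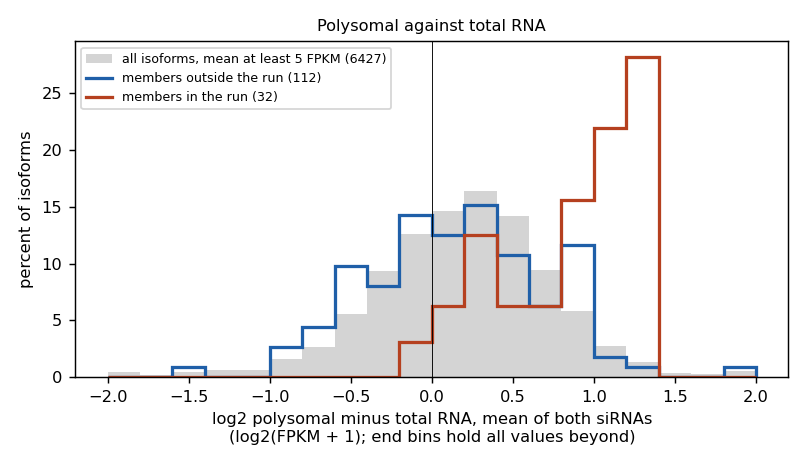
Lines give the share of isoforms (y axis, percent) by the log2 difference of polysomal minus total RNA, averaged over both siRNAs (x axis, log2(FPKM + 1) scale), for the 32 members of the run (red), the 112 others (blue) and all 6427 isoforms at the level minimum (grey). The medians are 0.98 in the run, 0.18 outside it and 0.21 over all.

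In the run the largest difference was that of uc003niz.4, which was higher in polysomal RNA by 1.31 ± 0.09 on the log2 scale (SE, limma adjusted p = 0.000226). It held 1496 and 1821 FPKM in control polysomal RNA against 594 and 683 FPKM in control total RNA. With DDX3X siRNA it held 1006 and 998 FPKM in polysomal RNA against 455 and 395 FPKM in total RNA. Polysomal values were the high ones with both siRNAs and did not overlap the total RNA values. The 2 most abundant members were also higher, uc003nfs.1 by 1.19 ± 0.10 (limma adjusted p = 0.000443) and uc003ngi.3 by 1.26 ± 0.08 (limma adjusted p = 0.000191). The 5 members of the run that did not pass were uc003ngt.3, uc003ngx.3, uc003ngl.3, uc003niv.3 and uc003njo.3. Their log2 differences were -0.05 to 0.27 (limma adjusted p from 0.0899 to 0.697), and they were lower with DDX3X siRNA by 31.3% to 43.2% in polysomal and by 40.4% to 49.9% in total RNA.

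Outside the run, uc009ywg.1 had the largest difference, at 5.19 ± 0.89 (limma adjusted p = 0.00598), which rests on total RNA values of practically 0 and was lost with no filter on low values (limma adjusted p = 0.0548). The other 37 members called higher differed by 0.29 to 1.20 on the log2 scale. Among them were uc003lyj.4, by 0.90 ± 0.07 (limma adjusted p = 0.000318), and uc001mok.3, by 0.84 ± 0.12 (limma adjusted p = 0.00311). Isoform uc001yku.4 did not pass (0.18, limma adjusted p = 0.162). The abundant members outside the run were thus not uniform in this contrast.

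The 23 members called lower in polysomal RNA all lay outside the run and had a median of 9.31 FPKM (range 5.29 to 52.9). The lowest was uc011baf.2, by -1.59 ± 0.10 (SE, limma adjusted p = 0.00017). Its polysomal values were 32.9 and 42.2 FPKM with control and 16.2 and 15.2 FPKM with DDX3X siRNA. Its total RNA values were 97.1 and 110.2 FPKM with control and 54.0 and 55.5 FPKM with DDX3X siRNA. Every total RNA value lay above every polysomal value. Within each fraction the DDX3X libraries were the low ones, as the rule requires. The next was uc009xdc.4, by -0.97 ± 0.11 (limma adjusted p = 0.00102). It held 8.78 and 6.84 against 4.33 and 5.23 FPKM in polysomal RNA and 16.1 and 15.7 against 10.2 and 10.8 FPKM in total RNA. Members with high and with low ratios of polysomal to total FPKM were thus both among those lower with DDX3X siRNA. The 23 were lower by a median of 43.8% in polysomal and 40.1% in total RNA, and the 37 called higher outside the run by 37.9% and 37.7%.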

How the data were processed

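Total and polysomal RNA of HT-144 cells was sequenced with paired-end reads of 75 bp, per the labels' protocols. The authors deposited 1 table of FPKM values with 65535 isoform rows and 8 library columns, per the file headers. The last location found in a value column, at row 64781, names chromosome 15. Whether the table holds isoforms of every chromosome is not known, and it may be incomplete. Shares over all isoforms therefore refer to the rows of this table only. TopHat2, Cufflinks 2.2.1 and hg38 are named in the submitters' processing notes; the annotation is not given in the sources used here. Left out were the 14 rows with text in a value column and the 7 with 1 nonzero value in all columns; 5 values written with a comma were taken as decimals. Cufflinks divides reads between isoforms by a model, so isoforms of one gene depend on each other, and its values hold no depth.

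Groups and replicate numbers came from the sample titles. The 15531 isoforms that reached 1 FPKM in 2 or more libraries were transformed as log2(FPKM + 1), and a cell-means model over 4 groups was fitted with limma 3.58.1 in R 4.3.3 (eBayes trend on, 4 residual degrees of freedom), with Benjamini-Hochberg adjustment over all isoforms and a threshold of 0.05. The added 1 makes differences of weakly expressed isoforms look smaller. In a check on simulated data for polysomal against total RNA among 15531 isoforms, the model called 84 of 100 isoforms with a 2-fold and 98 of 100 with a 4-fold difference, and 4.71% of calls were unchanged isoforms. The simulated noise was normal, independent between isoforms and drawn with the model's own spread, and no other isoforms were changed. The 4.71% is therefore not an error rate of the calls in the real values. The members, the rule and the tests were chosen with earlier results of these data known. Isoforms were named by rule: the 2 with the largest mean difference, the 2 most abundant, the 2 highest and 2 lowest called in polysomal against total RNA, the 2 with the most unequal differences and those nearest the limit. The other isoforms named were chosen after their values were seen, as were the run and its gap of 100 rows. The gene lists could not be used because no member matched a gene name. Python 3.11.15 and matplotlib 3.10.9 made the plots.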

Additional observations from a re-analysis of the deposited data

Results flagged for a closer look

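Isoform uc003yhc.3 lay on opposite sides with the 2 siRNAs: its polysomal values, 12.03 and 10.9 FPKM, were below its total RNA values of 13.5 and 12.3 FPKM with control siRNA, and its polysomal values, 7.56 and 7.91 FPKM, were above its total RNA values of 6.97 and 6.79 FPKM with DDX3X siRNA. The log2 difference between the polysomal and the total RNA change was 0.31. This difference was not tested, because the rule used both changes. It was the only one of the 144 members with this pattern (1 member), which 44 of the 6427 isoforms at the level minimum showed, and another 147 showed the opposite one.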

How the results depend on the processing

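The number of isoforms meeting the rule was 251 at a minimum mean of 1 FPKM, 73 at 20 FPKM, 35 at a limit of 0.67 and 435 at a limit of 0.9. It was 165 to 201 without single libraries, 158 after median-of-ratios scaling (117 of them members) and 138 after quantile normalization (110 of them members). The count of members called in polysomal against total RNA (88) stayed between 70 and 96 in all 17 alternatives, between 74 and 91 without single libraries. Without the near-zero member, a choice made after seeing the data, it was 87, and without the run, also added later, 61. Over all tested isoforms same-numbered libraries did not deviate together (r from -0.08 to 0.08 over 6 pairs of groups), so the numbers were not taken to pair the samples. Within the run most members did differ in the same direction in both fractions of an siRNA. With the replicate block 82 members were called (63 higher, 19 lower), against 88, and 4538 isoforms in all, against 4989. That block was 1 term for replicate 2 shared by all 4 groups. It cannot take up differences that run in opposite directions with the 2 siRNAs, as in the run, so pairing of fractions within an siRNA was not tested. Of the named isoforms, uc010qlo.2 changed from 0.94 to -0.0021 on the log2 scale without DDX3X polysomal replicate 2, and reached 1.88 (limma adjusted p = 0.00834) without replicate 1. Isoform uc001rnc.3, at -0.09, changed to 0.13 without DDX3X polysomal replicate 1 and to -0.31 without replicate 2 (limma adjusted p = 0.0395). The cause was not tested.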
